A study of Mus musculus with 6 samples.

Results

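The aminoacyl-tRNA synthetases examined here are 36 nuclear genes, 20 for the cytosolic enzymes and 16 for the mitochondrial ones, taken by gene symbol from 35275 genes in an RNA-seq table of mouse fat. All 36 were found and all 36 passed the filter for testing. The tissue was epididymal adipose tissue, the visceral fat beside the testis, of male C57BL/6 mice. Control mice were labelled Tfrcfl/fl, which means that both copies of the transferrin receptor gene Tfrc carry loxP sites, and knockout mice were labelled TfrcAKO. The labels do not spell out AKO, which in this field stands for a deletion in adipocytes. All mice were put on a 60% high-fat diet when 2 months old and kept on it for 10 weeks. The labels give their age as 4.5 months, and there were 3 samples per group. The promoter that drove the Cre recombinase is not given in the sources used here, and nothing in the labels ties each sample to its own animal. The p-values therefore measure only how far these samples spread, which may be technical.

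Each aminoacyl-tRNA synthetase joins an amino acid to its matching tRNA, the step that sets the genetic code before a ribosome uses the tRNA. The cytosolic enzymes charge tRNAs for the ribosomes of the cytoplasm, and several of them sit together in the multi-synthetase complex. The mitochondrial enzymes, mostly marked by a 2 at the end of the symbol, are made in the cytoplasm, imported, and charge the tRNAs encoded in mitochondrial DNA, on which the respiratory chain subunits made inside the organelle depend. Eprs charges both glutamate and proline tRNAs, Farsa and Farsb are the subunits of a single cytosolic enzyme, and Gars and Kars supply both compartments from a single gene. Many cytosolic synthetase genes are known targets of ATF4, a transcription factor whose protein is made when amino acids are short or mitochondria are under stress.

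Several facts of the whole series bear on these genes. Reads assigned to genes, recovered from the deposited FPKM values (fragments scaled by gene length and by the library's reads), ranged from 25252839 to 30650624 per library. The deleted gene, Tfrc, was measured at 11.1, 13.2 and 11.9 FPKM in the control group, replicates 1 to 3, and at 7.10, 8.27 and 9.50 FPKM in the knockout group, without overlap (log2 fold change −0.52 ± 0.12 SE, limma adjusted p = 0.0147). All 18 mature adipocyte markers were higher in every knockout library than in any control library, 17 of them were called higher, and their summed level was 9757 to 13836 FPKM in control and 25894 to 38067 FPKM in knockout tissue. The 18 macrophage markers summed to 7476 to 8931 FPKM in control and 1684 to 3995 FPKM in knockout tissue, and 15 of them were called lower. Knockout replicate 3 had the highest adipocyte and the lowest macrophage sum. In whole tissue, fewer cells of a type and less RNA per cell cannot be told apart. Summed endothelial and mural markers were at 159 to 190 FPKM in control and 340 to 487 FPKM in knockout libraries, with 9 of 10 called higher, and 6 markers of epididymal epithelium, of which 2 were at 0 everywhere, summed to at most 0.5 FPKM.

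Before any comparison, the mitochondrial leucyl-tRNA synthetase gene Lars2 has to be set apart from the other members. Lars2 (ENSMUSG00000035202, mm10 chromosome 9, 123366940 to 123462664, plus strand) stood at 389, 10.5 and 578 FPKM in the control group, in replicate order, and at 477, 414 and 394 FPKM in the knockout group. Control replicate 2 was thus far below every other library, at 0.027 times the lowest of them, while the other 5 libraries lay at levels that no other mitochondrial synthetase approached. Among 10152 genes above 2 FPKM in the other 5 libraries, Lars2 had the second lowest ratio of control replicate 2 to the lowest other library. Only Trbd1, a gene segment of 12 bases, ranked lower, and next came Yam1 and Gm15564, a lincRNA and an antisense gene in the GENCODE M21 annotation, where the identifier of Yam1 has the name Gm42418. Yam1 was at 863 FPKM in control replicate 2 and between 8384 and 23731 FPKM in the other libraries, and Gm15564 was at 0.916 FPKM there and between 6.60 and 10.7 FPKM elsewhere. In GENCODE M21, whose build is the one used for these data, a stretch of 72 bases of the main Lars2 transcript (bases 3278 to 3349 of 3894) is 98.6% identical to a Gm15564 transcript. A stretch of 97 bases beside and over it (3233 to 3329) is 94.8% identical to a transcript of AA474408, whose control values were 0.308, 0.253 and 0.386 FPKM, so that it did not share the low value. Both stretches lie in the 3' UTR, after the last coding base at 2908. The part that reads from these stretches had in the Lars2 value was not tested, since the deposited table holds no positions of reads within genes. Lars2 was not called (log2 fold change 1.66, 95% interval −1.70 to 5.01, limma adjusted p = 0.370), and its value was −0.15 without control replicate 2. Summaries of the mitochondrial set below are therefore given with and without it.

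**Figure D1:**
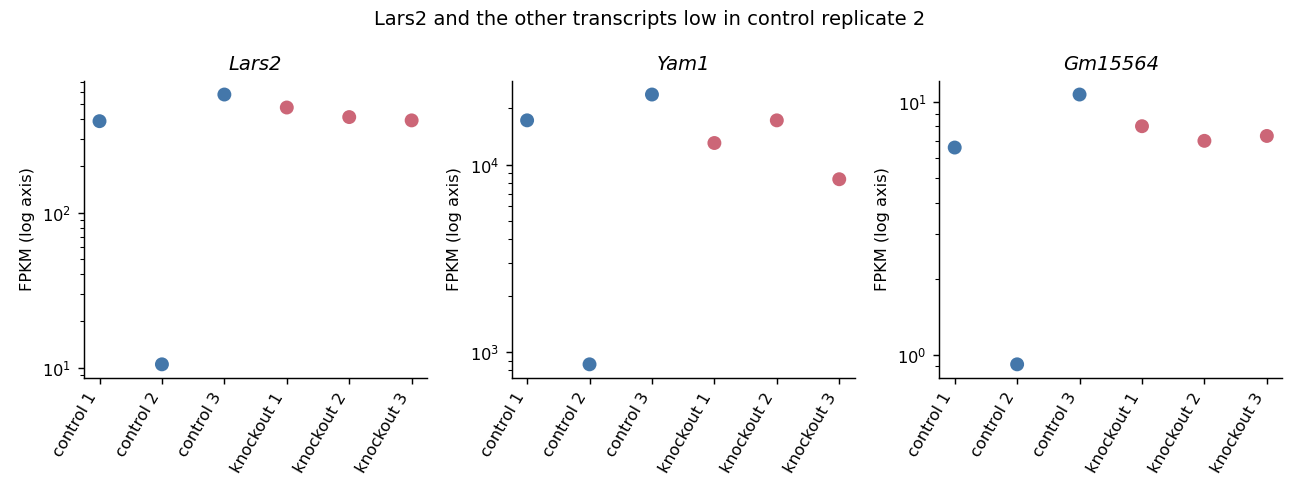
FPKM of Lars2, Yam1 and Gm15564 in each library on log axes, control in blue and knockout in red. Control replicate 2 is the lowest point in each panel, at 10.5, 863 and 0.916 FPKM.

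The mRNAs of the cytosolic enzymes were more abundant per length than those of the mitochondrial enzymes. In control tissue the means of the cytosolic genes ran from 12.03 FPKM (Farsa) to 63.0 FPKM (Nars, the asparagine enzyme) with a median of 23.3 FPKM. The mitochondrial genes other than Lars2 ran from 0.907 FPKM (Mars2, for methionine) to 13.0 FPKM (Iars2, for isoleucine) with a median of 3.79 FPKM. All 16 mitochondrial genes could be set beside a cytosolic gene for the same amino acid, and in 15 of the 16 pairs the cytosolic mRNA was the more abundant in every control library. The pair that departed from this was Lars2 and Lars. The isoleucine pair came closest to equal levels, with Iars2 at 0.963, 0.981 and 0.875 times the level of Iars in the control libraries.

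Between the groups the synthetase genes moved little. Of the 36 members, 11 were called at a limma adjusted p under 0.05, or 30.6%, against 43.5% of all 14383 genes tested. Only Vars2 and Lars2 had a log2 fold change of 0.5 or more in size. Of all 14383 genes tested, 9748 were under 0.5 in size. Across every gene tested the median log2 fold change was −0.03. By compartment, 6 mitochondrial genes were called higher and none lower, while 1 cytosolic gene was called higher and 4 were called lower; the difference between compartments was not tested. Over all genes 21.9% were called higher and 21.6% lower. For the 16 mitochondrial genes the median was 0.25, or 0.24 without Lars2, and for the 20 cytosolic genes it was −0.02.

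**Figure D2:**
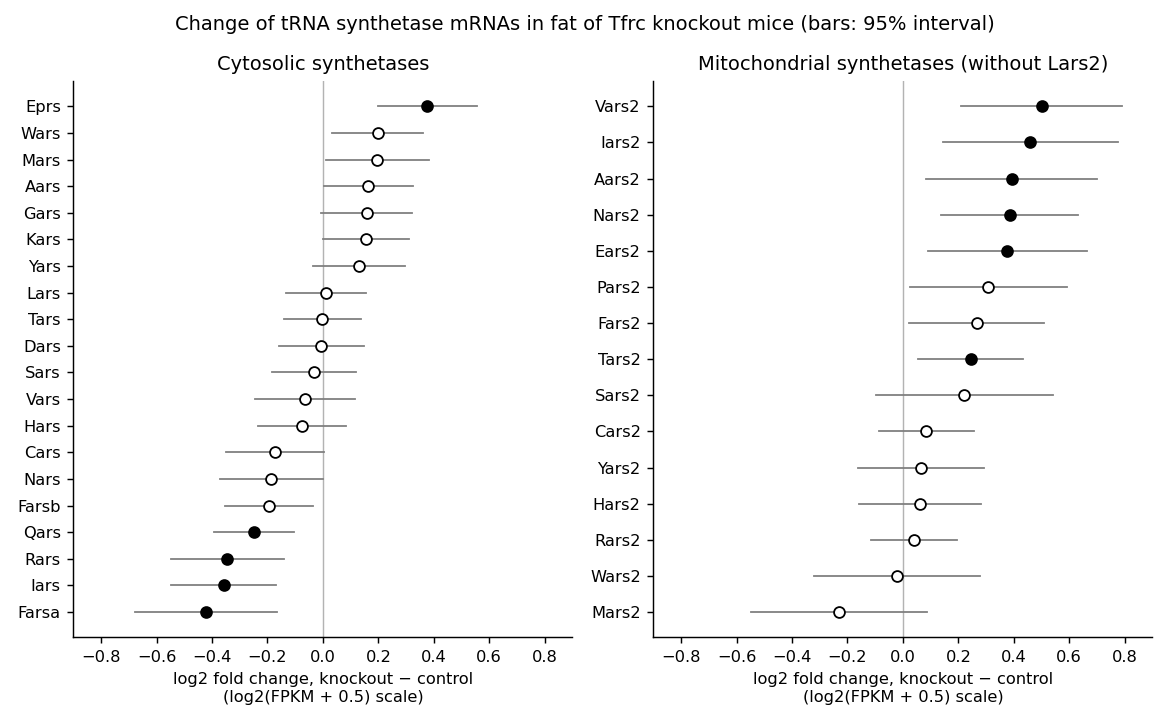
Log2 fold change of knockout against control for each cytosolic and mitochondrial synthetase except Lars2, on the log2(FPKM + 0.5) scale, with 95% intervals from limma. Filled points were called at an adjusted p under 0.05: Eprs to the right and Qars, Rars, Iars and Farsa to the left among cytosolic genes, and 6 mitochondrial genes to the right.

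Of the mitochondrial set, Vars2, Iars2, Aars2, Nars2, Ears2 and Tars2 rose. Vars2, the valine enzyme (ENSMUSG00000038838, mm10 chromosome 17, 35655634 to 35667592, minus strand), was at 3.51, 3.89 and 3.53 FPKM in control and at 4.98, 4.80 and 6.41 FPKM in knockout replicates 1 to 3. Every knockout library was above every control library, and the log2 fold change was 0.50 with an SE of 0.12 (limma adjusted p = 0.0175). Iars2, the isoleucine enzyme (ENSMUSG00000026618, mm10 chromosome 1, 185284726 to 185329396, minus strand), was at 13.0, 13.7 and 12.4 FPKM in control and at 15.6, 17.0 and 22.2 FPKM in knockout tissue. Knockout replicate 3 was the highest, as in 8 of the 16 mitochondrial genes, and the log2 fold change was 0.46 ± 0.13 (SE, limma adjusted p = 0.0305). Nars2, for asparagine, was at 1.70, 1.61 and 1.69 FPKM in control and at 2.13, 2.40 and 2.47 FPKM in knockout tissue, which is 0.39 ± 0.10 higher on the log2 scale (SE, limma adjusted p = 0.0243). Its groups did not overlap, and the control libraries had an SD of 0.0477 FPKM (n = 3).

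Aars2, Ears2 and Tars2 were nearer the threshold. Aars2, for alanine, was at 3.71, 4.15 and 3.22 FPKM in control and at 5.14, 4.29 and 5.61 FPKM in knockout tissue, and control replicate 2 and knockout replicate 2 were close to each other. Ears2, which charges glutamate, was at 1.62, 1.40 and 1.42 FPKM in control and at 1.90, 2.36 and 1.97 FPKM in knockout tissue. Tars2, for threonine, was at 8.41, 9.26 and 8.82 FPKM in control and at 10.3, 9.99 and 11.4 FPKM in knockout tissue. None of these 3 genes overlapped between the groups, and their limma adjusted p values were 0.0465, 0.0425 and 0.0439, with log2 fold changes of 0.39, 0.38 and 0.24. Mean levels of the 6 genes that rose were 19.6% (Tars2) to 48.2% (Vars2) higher in the knockout.

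The other mitochondrial genes were not called. Pars2, for proline, and Fars2, for phenylalanine, did not overlap between the groups. Pars2 was at 1.28, 1.05 and 1.17 FPKM in control and at 1.44, 1.70 and 1.55 FPKM in knockout tissue. Fars2 was at 8.13, 7.53 and 8.16 FPKM in control and at 9.40, 8.61 and 11.1 FPKM in knockout tissue. Their log2 fold changes were 0.31 and 0.27, with limma adjusted p values of 0.0748 and 0.0751. Mars2 was the mitochondrial gene with the lowest log2 fold change, −0.23 with a 95% interval of −0.55 to 0.09, and its knockout libraries (0.555, 0.778 and 0.778 FPKM) all lay below its control libraries (0.892, 0.965 and 0.862 FPKM). Groups that do not overlap were found in 9 of the 16 genes, 8 of them with the knockout higher, against 60.1% of all genes tested and 29.1% with the knockout higher. Besides Lars2, the genes Sars2, Cars2, Yars2, Hars2, Rars2 and Wars2 overlapped between the groups, with log2 fold changes from −0.02 (Wars2) to 0.22 (Sars2). Hars and Hars2 lie head to head and overlap by 198 bases, and as the strand setting of the counting is not given, their reads in the overlap cannot be told apart.

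With fewer libraries fewer genes were called, among the mitochondrial members and over all genes. The number called higher was 0 without control replicate 1, 1 without control replicate 2, 0 without control replicate 3, 3 without knockout replicate 1, 3 without knockout replicate 2 and 4 without knockout replicate 3. The shares of all genes called in those fits were, in the same order, 32.5%, 23.4%, 24.0%, 41.1%, 38.1% and 41.4%. The mitochondrial median was 0.247, 0.243 and 0.27 without control replicates 1, 2 and 3, close to the 0.255 with all libraries. It was 0.31, 0.27 and 0.182 without knockout replicates 1, 2 and 3, and so lowest without knockout replicate 3. Without both control replicate 2 and knockout replicate 3, 2 mitochondrial genes were called higher, the median of the set was 0.16, and 32.4% of all genes were called. With no filter on low values 2 mitochondrial genes were called higher, and the share of all genes called was 21.2%, against 43.5% in the main fit. In these 8 fits none of the 16 genes was called lower.

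**Figure D3:**
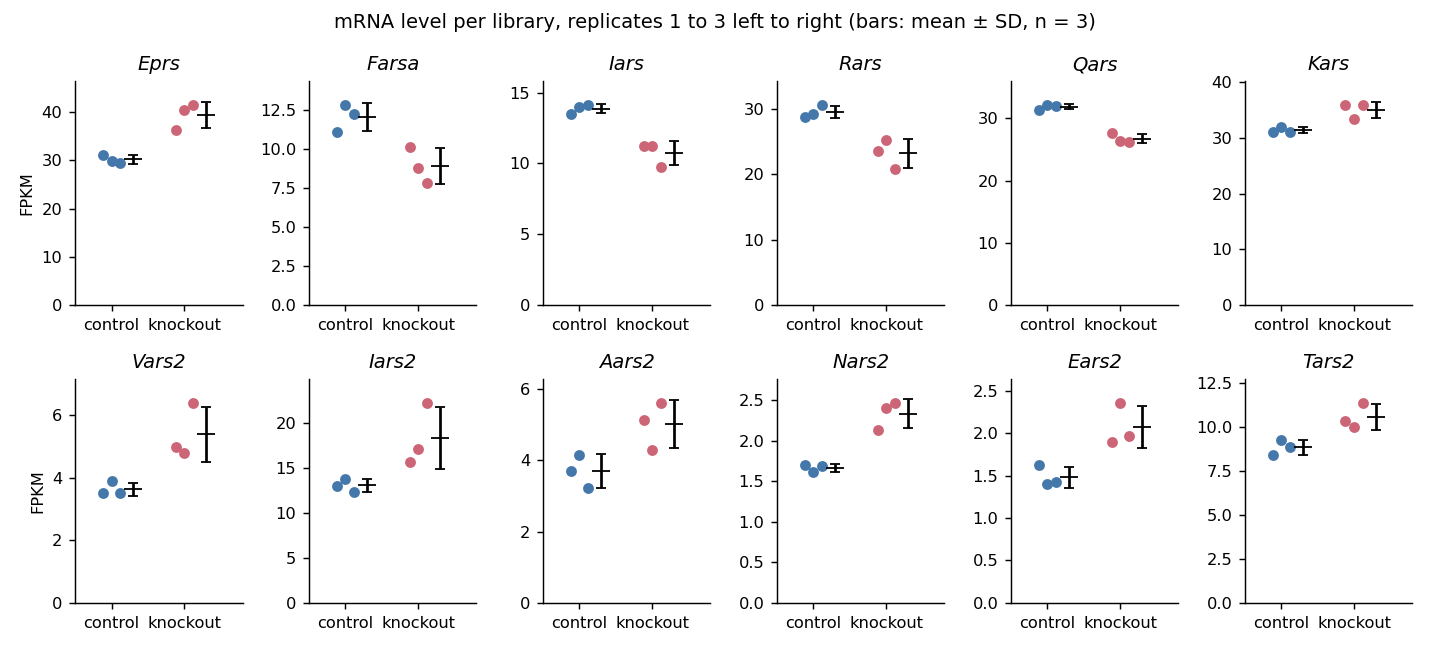
FPKM per library of 6 cytosolic genes (upper row) and 6 mitochondrial genes (lower row), control in blue and knockout in red, with the mean and SD of 3 libraries as bars; the axes start at 0. Kars was not called, the other 11 were, and in all 12 the groups do not overlap.

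Among the cytosolic enzymes, Eprs rose and Farsa, Iars, Rars and Qars fell. Eprs (ENSMUSG00000026615, mm10 chromosome 1, 185363095 to 185428355, plus strand) was at 31.2, 29.8 and 29.5 FPKM in control and at 36.3, 40.3 and 41.4 FPKM in knockout replicates 1 to 3. The mean was 30.5% higher in the knockout, the log2 fold change was 0.38 ± 0.08 (SE), and the limma adjusted p was 0.00964, the smallest among the 36 genes. It was the single member called in each of the 15 alternative fits, with limma adjusted p values between 0.00906 and 0.0459.

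Farsa, the alpha subunit of the phenylalanine enzyme, had the largest decrease. It was at 11.1, 12.8 and 12.2 FPKM in control and at 10.1, 8.75 and 7.82 FPKM in knockout tissue, with −0.42 ± 0.11 as its log2 fold change (SE, limma adjusted p = 0.0204). Its partner Farsb, the beta subunit, went from 24.6 ± 0.741 to 21.5 ± 0.955 FPKM (SD, n = 3 each) without overlap and missed the threshold, with a log2 fold change of −0.19 (95% interval −0.35 to −0.04, limma adjusted p = 0.0521). It was called lower in 2 of the 15 alternative fits.

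Iars, the isoleucine enzyme (ENSMUSG00000037851, mm10 chromosome 13, 49682100 to 49734267, plus strand), was at 13.5, 14.0 and 14.1 FPKM in control and at 11.2, 11.3 and 9.73 FPKM in knockout tissue. Its log2 fold change was −0.36 ± 0.08 (SE, limma adjusted p = 0.0129). Rars, for arginine, was at 28.7, 29.3 and 30.6 FPKM in control and at 23.5, 25.2 and 20.8 FPKM in knockout tissue, and Qars, for glutamine, at 31.3, 32.1 and 32.0 FPKM and at 27.6, 26.3 and 26.2 FPKM. The log2 fold changes were −0.35 ± 0.09 (SE) for Rars and −0.25 ± 0.06 (SE) for Qars, with limma adjusted p values of 0.0184 and 0.0177. In all 4 genes that fell, each knockout library was below each control library. The number called lower was 0 without control replicate 2, 0 without control replicate 3, 2 without knockout replicate 2, and 4 without control replicate 1, knockout replicate 1 or knockout replicate 3. Without control replicate 2 or 3, the share of all genes called was 23.4% or 24.0%, and the log2 fold changes were −0.35 in each for Iars and −0.35 and −0.32 for Rars. The share was 38.1% without knockout replicate 2 and 43.5% with all samples.

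The other 14 cytosolic genes besides Farsb lay between −0.19 (Nars) and 0.20 (Wars, for tryptophan) on the log2 scale. Wars, known also as an interferon-induced gene, was at 21.0, 21.0 and 22.3 FPKM in control and at 26.1, 23.8 and 24.1 FPKM in knockout tissue, a log2 fold change of 0.20 with a limma adjusted p of 0.0554. Without knockout replicate 3 it was called higher, beside Eprs. Mars, Aars, Gars, Kars and Yars, for methionine, alanine, glycine, lysine and tyrosine, also had every knockout library above every control library. Their log2 fold changes were 0.13 (Yars) to 0.20 (Mars) and their limma adjusted p values 0.0814 to 0.167. Nars and Cars, for asparagine and cysteine, had every knockout library below every control library. Their log2 fold changes were −0.19 and −0.17, with limma adjusted p values of 0.0932 and 0.0975. Tars, for threonine, differed least, with 20.6 ± 0.357 FPKM in control and 20.6 ± 0.111 FPKM in knockout tissue (SD, n = 3 each) and a 95% interval of −0.14 to 0.14 on the log2 scale. Dars (−0.01), Lars (0.01) and Sars (−0.03) had similar values, with intervals that reached no further than −0.19 or 0.16. Knockout libraries did not overlap control libraries in 14 of the 20 genes, 7 in each direction, against 60.1% of all genes tested, 29.1% higher and 31.0% lower. The summed level of the 20 mRNAs was 498 to 511 FPKM in control and 492 to 502 FPKM in knockout tissue.

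The sets were also compared within each library, as a description without a test. The mean log2(FPKM + 0.5) of the mitochondrial genes without Lars2 minus that of the cytosolic genes was −2.38, −2.37 and −2.41 in the control group, in replicate order, and −2.22, −2.16 and −2.03 in the knockout group. All 3 knockout values were above all 3 control values, and knockout replicate 3 was the highest. With Lars2 included the control values were −1.97, −2.29 and −1.97 and the knockout values −1.81, −1.76 and −1.65. The same knockout libraries had the higher adipocyte sums and the lower macrophage sums given above, and their part in the shift was not tested.

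**Figure D4:**
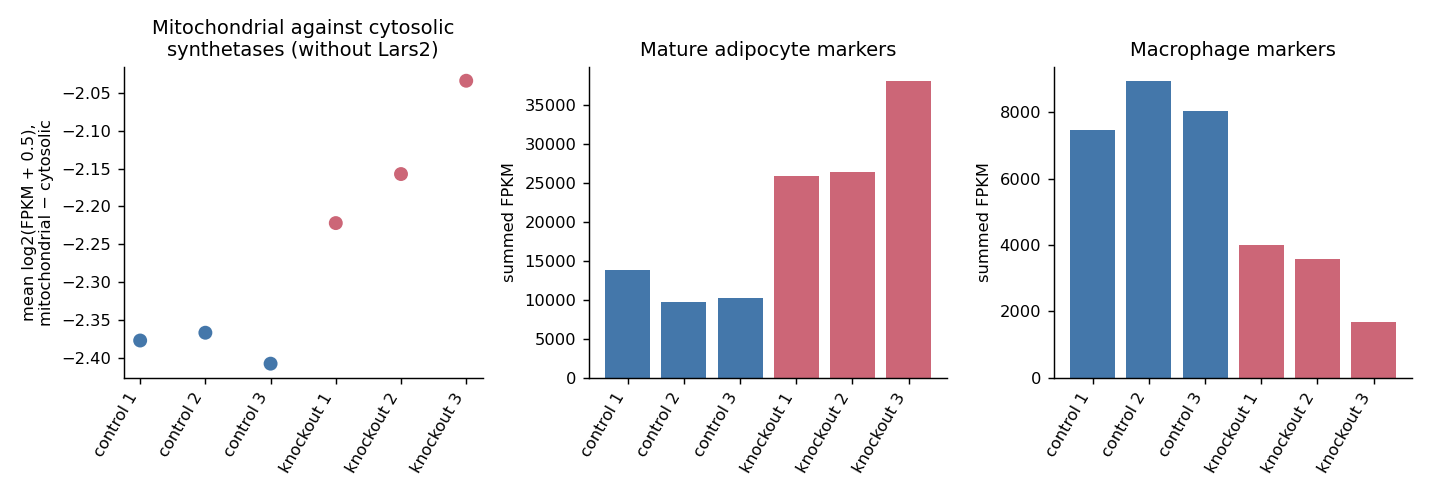
Left, the mean log2(FPKM + 0.5) of 15 mitochondrial genes minus that of 20 cytosolic genes in each library; middle and right, summed FPKM of 18 mature adipocyte and 18 macrophage markers, with bars from 0. Control libraries are blue and knockout libraries red. Knockout replicate 3 has the highest difference (−2.03), the highest adipocyte sum and the lowest macrophage sum.

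Pairs of enzymes for the same amino acid were compared through the ratio of their mRNAs. Of the 16 pairs, the ratio of the mitochondrial to the cytosolic mRNA was higher in every knockout library than in any control library in 7, lower in 1 and overlapping in 8. The share of such ratios among gene pairs at large was not computed, so these counts are a description only. Of single genes tested, 60.1% did not overlap between the groups. The isoleucine pair was the only pair in which both members were called in opposite directions. The ratio of Iars2 to Iars went from 0.963, 0.981 and 0.875 in control to 1.39, 1.51 and 2.28 in knockout replicates 1, 2 and 3, so that the mitochondrial mRNA became the more abundant of the pair. The phenylalanine pair had the next largest shift among pairs without Lars2, with a ratio of Fars2 to Farsa of 0.734, 0.589 and 0.667 in control and 0.931, 0.984 and 1.42 in knockout tissue. The other 5 pairs with a higher ratio in the knockout were those of asparagine, valine, arginine, cysteine and threonine. For arginine the shift came with a fall of Rars, while Rars2 had a log2 fold change of 0.04. For glutamate, Ears2 and Eprs both rose, each by 0.38. For methionine the ratio of Mars2 to Mars was lower in the knockout, at 0.0626, 0.0625 and 0.0616 in control and 0.0319, 0.0502 and 0.0446 in knockout tissue.

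The synthetase genes known as ATF4 targets were examined beside other ATF4 targets. Of 13 cytosolic synthetase genes commonly given as targets, Eprs rose and Iars fell, and their median log2 fold change was 0.01. Of the 7 other cytosolic genes, none rose and 3 fell (Farsa, Rars and Qars), against 21.6% of all genes called lower, with a median of −0.19. Which genes count as targets is background knowledge, and another choice could move genes between these groups. Of 24 further ATF4 targets in amino acid metabolism, transport and stress responses, 14 rose (58.3%, against 21.9% of all genes) and 2 fell, with a median of 0.60. The adipocyte and macrophage sums differed between the same libraries, and their part in these values was not tested. Phgdh, the first enzyme of serine synthesis, rose from 43.0 ± 6.64 to 204 ± 67.1 FPKM (SD, n = 3 each). Psat1, the next enzyme of that pathway, rose by 0.97 ± 0.10, the leucine sensor Sesn2 by 1.06 ± 0.10 and the stress protein gene Nupr1 by 0.60 ± 0.07 (log2 ± SE, limma adjusted p = 0.00363, 0.00339 and 0.00366). Gdf15 and Slc7a11, the cystine transporter, fell, Gdf15 from 19.5 ± 4.74 to 5.62 ± 2.38 FPKM. Atf4 mRNA was at 70.6, 77.3 and 72.6 FPKM in control and at 66.9, 68.1 and 56.8 FPKM in knockout tissue, a log2 fold change of −0.20 with a limma adjusted p of 0.121. ATF4 is controlled largely at translation, and protein was not measured here. Among its regulators and partners Trib3 rose by 1.10 ± 0.14, Atf5 by 0.77 ± 0.11, Ddit3 by 0.44 ± 0.12 and Gcn1l1 by 0.38 ± 0.12, while Eif2ak4, the kinase that senses uncharged tRNA, fell by 0.31 ± 0.09 and Impact, an inhibitor of that pathway, by 0.31 ± 0.08 (log2 ± SE, limma adjusted p = 0.00392, 0.00415, 0.0266, 0.0439, 0.0277 and 0.0195). In all, 4 of these 14 genes rose and 2 fell, or 28.6% and 14.3%, beside 21.9% and 21.6% of all genes.

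**Figure D5:**
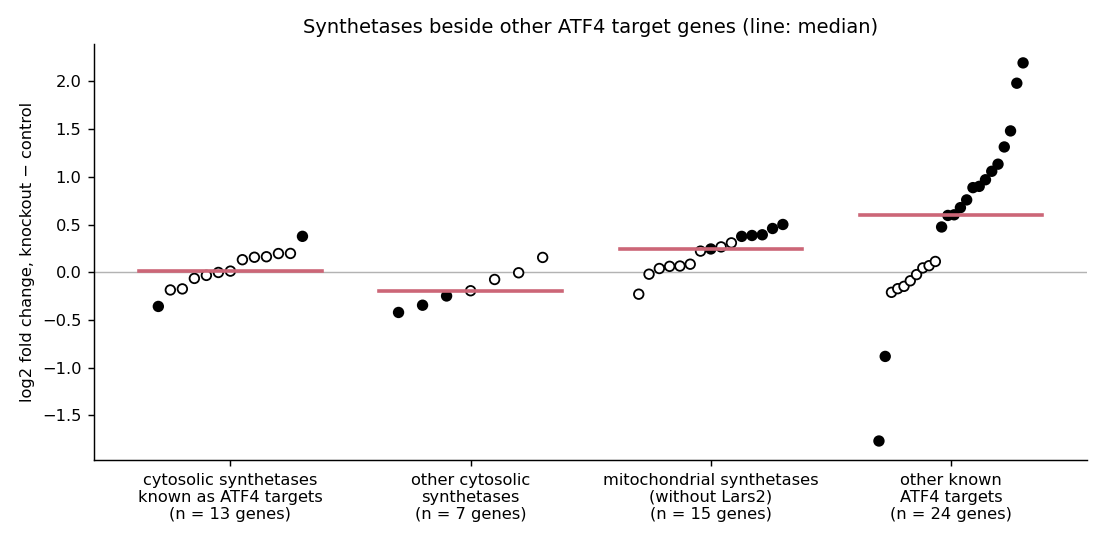
Log2 fold changes of 13 cytosolic synthetase genes known as ATF4 targets, 7 other cytosolic genes, 15 mitochondrial genes without Lars2 and 24 other ATF4 targets, with the median of each as a red line and called genes filled. The medians are 0.01, −0.19, 0.24 and 0.60.

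Promoter sequences from RefSeq (GRCm38.p6), 250 bases before to 50 after a gene's start, were at hand for 27 of the 36 members, 13 cytosolic and 14 mitochondrial. Below, a gene was counted as holding a motif where any promoter sequence under its symbol did. Shares of all promoters count each sequence by itself. The core of the composite element bound by ATF4 with C/EBP partners, searched on both strands as TGATGNAA, was present in 5 of the 13 cytosolic promoters (Aars, Gars, Iars, Tars and Yars) and in 0 of the 14 mitochondrial ones. It was present in 3.97% of all 32851 promoters in the table, in 7 of 21 promoters of the 24 further targets (Asns, Pycr1, Chac1, Slc7a11, Nupr1, Vldlr and Fgf21) and in that of Trib3. Stretches of 60 bases around it are shown for the 5 cytosolic genes, since these carry the element and changed little or fell, and for the 3 genes with the largest rises among the other holders, which were chosen after their values were seen. Capitals mark the element, which is in its reverse complement where it lies on the opposite strand.
Aars, first match, chr8:111033704-111033763, plus strand: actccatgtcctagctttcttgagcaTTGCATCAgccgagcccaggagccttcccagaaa
Aars, other match, chr8:111033825-111033884, plus strand: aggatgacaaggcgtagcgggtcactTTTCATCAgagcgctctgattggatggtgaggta
Gars, chr6:55037945-55038004, plus strand: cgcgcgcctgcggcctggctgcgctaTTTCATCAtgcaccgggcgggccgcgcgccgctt
Iars, chr13:49682111-49682170, plus strand: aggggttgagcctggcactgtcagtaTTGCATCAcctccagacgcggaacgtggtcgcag
Tars, chr15:11399640-11399699, minus strand: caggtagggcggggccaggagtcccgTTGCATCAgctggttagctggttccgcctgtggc
Yars, chr4:129189880-129189939, plus strand: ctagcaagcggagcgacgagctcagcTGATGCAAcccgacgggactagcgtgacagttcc
Asns, chr6:7693199-7693258, minus strand: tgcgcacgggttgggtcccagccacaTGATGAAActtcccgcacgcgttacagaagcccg
Trib3, chr2:152344013-152344072, minus strand: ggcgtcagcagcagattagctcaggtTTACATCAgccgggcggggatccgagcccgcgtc
Chac1, chr2:119351023-119351082, plus strand: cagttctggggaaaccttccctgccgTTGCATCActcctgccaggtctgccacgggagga
The holders did not share a direction. Aars, Gars and Yars had log2 fold changes of 0.16, 0.16 and 0.13 and Tars of 0.00, none of them called, and Iars fell by 0.36. Asns, asparagine synthetase, rose by 0.89 ± 0.14, Chac1, which breaks down glutathione, by 1.13 ± 0.17, and Nupr1, Vldlr and Fgf21 by 0.60, 0.60 and 0.47, while Slc7a11 fell by 0.88 ± 0.13 (log2 ± SE where given, called by limma). Pycr1, of proline synthesis, was not called. A match of letters is a description of the sequence and does not show binding.

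Eprs and Iars2, which both rose, lie on mm10 chromosome 1 and are transcribed away from each other, with 33698 bases between them. Other genes lie in that interval, among them Bpnt1 in GENCODE M21. The promoters of Eprs and Iars2 are shown so that these called members, which lie in the same region, can be compared. The motif of NRF1, a transcription factor of many genes for mitochondrial proteins, was searched on both strands and is in capitals.
Iars2, chr1:185329352-185329651, minus strand: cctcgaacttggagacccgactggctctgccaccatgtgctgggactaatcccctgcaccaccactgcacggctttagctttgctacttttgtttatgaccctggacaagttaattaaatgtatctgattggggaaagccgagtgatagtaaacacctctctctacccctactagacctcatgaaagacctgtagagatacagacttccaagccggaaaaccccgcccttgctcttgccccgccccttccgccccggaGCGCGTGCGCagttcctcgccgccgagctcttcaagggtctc
Eprs, chr1:185362794-185363093, plus strand: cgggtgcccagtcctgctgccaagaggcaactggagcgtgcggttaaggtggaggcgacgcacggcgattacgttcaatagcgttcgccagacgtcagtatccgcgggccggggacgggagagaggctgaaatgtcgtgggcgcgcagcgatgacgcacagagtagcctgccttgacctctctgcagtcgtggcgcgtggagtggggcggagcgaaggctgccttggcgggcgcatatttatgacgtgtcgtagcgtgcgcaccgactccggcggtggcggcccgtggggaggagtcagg
The NRF1 motif was present in the promoter of Iars2 and not in that of Eprs. It was found in 2 of 14 mitochondrial promoters (Iars2 and Mars2) and in 3 of 13 cytosolic ones (Farsb, Kars and Tars), against 4.60% of all promoters. The promoter windows of Vars2, Aars2, Nars2, Ears2 and Tars2, the other mitochondrial genes that rose, did not hold these letters.

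Other genes of tRNA charging and mitochondrial translation that belong to neither enzyme set were examined from lists of their own. The auxiliary proteins of the multi-synthetase complex, Aimp1, Aimp2 and Eef1e1, were not called, with log2 fold changes of −0.07, −0.08 and −0.17. Gatb, a subunit of the amidotransferase that makes glutaminyl-tRNA in mitochondria in place of a synthetase, was at 4.41, 4.08 and 4.64 FPKM in control and at 5.11, 6.36 and 6.81 FPKM in knockout tissue. Every knockout library was above every control library, and Gatb was 0.43 ± 0.12 higher on the log2 scale (SE, limma adjusted p = 0.0267). The other subunits, Qrsl1 (0.11) and Gatc (0.05), were not called.

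Of 14 genes that process or modify mitochondrial or shared tRNAs, 4 rose and none fell. Trit1, which isopentenylates tRNAs, rose by 1.02 ± 0.16, Osgepl1, of threonylcarbamoyl modification in mitochondria, by 0.62 ± 0.14, Elac2, which trims the 3' ends of tRNAs, by 0.29 ± 0.07, and Trmu, which thiolates mitochondrial tRNAs, by 0.39 ± 0.11 (log2 ± SE, limma adjusted p = 0.00529, 0.013, 0.0199 and 0.0289). Of 10 mitochondrial translation factors, Tsfm, an elongation factor, rose by 0.49 ± 0.08 and Mrrf, the ribosome recycling factor, by 0.56 ± 0.13 (limma adjusted p = 0.00599 and 0.0157), and none fell. Tufm, the elongation factor that carries charged tRNA to the mitochondrial ribosome, had a log2 fold change of 0.28 with a limma adjusted p of 0.0573. Of 6 cytosolic elongation genes Eef1b2 fell by 0.34 ± 0.11 (SE, limma adjusted p = 0.0401) and none rose. Eef1a1, which carries charged tRNA to the cytosolic ribosome, was at 2403 to 2528 FPKM in control and 1705 to 2168 FPKM in knockout tissue and was not called. Among 9 genes of proofreading, selenocysteine synthesis and tRNA export, Dtd1, which removes D-amino acids from tRNAs, rose by 0.62 ± 0.11 and Sepsecs, of selenocysteinyl-tRNA synthesis, by 0.26 ± 0.08 (limma adjusted p = 0.00681 and 0.0406). None of these 9 fell. The shares called higher were 28.6% of the 14 tRNA-modifying genes, 20% of the 10 translation factors and 22.2% of these 9, beside 21.9% of all genes. Of the 6 cytosolic elongation genes 16.7% were called lower, beside 21.6% of all genes.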

How the data were processed

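Per the labels' protocols, total RNA was extracted with Trizol and libraries were made with the NEBNext Ultra kit. Per the submitters' processing notes CASAVA, FastQC, STAR 2.5 and HTSeq 0.6.1 were used with build mm10; no annotation release or strand setting is stated there. The authors deposited FPKM per gene and sample, per the file headers, with the gene length. FPKM times length gave the same sum in every library, and 100% of values were whole multiples of 1 read within 0.01, which gave back the reads.

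The 14383 genes that reached 0.5 FPKM in 3 samples were tested on log2(FPKM + 0.5) by limma 3.58.1 in R 4.3.3, with trend and robust moderation, two-sided, Benjamini-Hochberg adjusted over all genes tested. A fold change on this scale understates that of low genes. Intervals are 95% intervals from limma and cover the spread between samples. The procedure was run on simulated reads with far fewer changed genes than were called here and the same spread setting for every gene. That run does not measure its error rate in these data. No library repeated another (chi-square per degree of freedom 15.5 to 98.1 between replicates).

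The members and lists were chosen with earlier results of these data known, so no test was run over a list. Named were all members, Tfrc, Atf4 and, per further list, up to 4 called genes with the smallest p or else the most abundant; other names in the text were chosen after their values were seen. Alternatives were pseudocounts of 0.1 and 1, other filters, a replicate block, each sample left out, limma-voom on recovered reads and median-of-ratios scaling. Chosen after seeing the data were leaving out control replicate 2 with knockout replicate 3, and leaving out Yam1, Lars2, Gm15564 and Gm26917 with rescaling. Gm26917 did not share the low value in control replicate 2, with 122, 121 and 129 FPKM in control replicates 1 to 3. Promoters were matched by symbol, or by the symbol with a 1 added. Lars2 was compared with GENCODE M21 transcripts by blastn 2.17.0. Some results are not reported here.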

Additional observations from a re-analysis of the deposited data

How the results depend on the processing

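Every alternative kept the direction of all 11 called members. Over all genes tested, 6253 were called, 3371 without control replicate 2 and 3456 without control replicate 3, and the leave-one-out range was 3371 to 5958. With 1 library left out, cytosolic genes called higher ranged from 1 to 2, cytosolic genes called lower from 0 to 4, and mitochondrial genes called higher from 0 to 4. Median-of-ratios scaling gave 2 cytosolic genes called higher (Eprs and Wars) and moved the cytosolic median from −0.0192 to 0.00954. With no filter on low values 2 mitochondrial genes were called higher, and 21.2% of all genes were called, against 43.5% in the main fit. Without control replicate 2 and knockout replicate 3, 2 cytosolic genes were called lower, 2 mitochondrial genes higher, and the mitochondrial median was 0.16; over single left-out libraries that median ranged from 0.182 to 0.31. The replicate block left 1 cytosolic gene called lower, 1 mitochondrial gene called higher and 4581 genes in all; the samples share only a number, as same-numbered libraries deviated together with correlations of −0.237, 0.0305 and −0.179 across genes, and no library correlated best with its own number.

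The signs of Lars2 and of members near 0, none called in any of these fits, turned in some. With median-of-ratios scaling Dars was 0.0233, Tars 0.0263 and Wars2 0.00299. Without control replicate 2 and knockout replicate 3, Tars was 0.00993, Lars2 −0.0952 and Wars2 0.0674. Over the fits without 1 library and the fit without both of those, Dars ranged from −0.0332 to 0.012, Tars from −0.0141 to 0.0102, Lars from −0.0074 to 0.026, Lars2 from −0.153 to 2.71, Wars2 from −0.107 to 0.0674 and Yars2 from −0.00685 to 0.12. Precision is limited by 3 samples a group: with all samples, the widest 95% interval of a member other than Lars2 was that of Sars2, −0.10 to 0.54.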

Other observations

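Grouped by the fold of their catalytic domain, which divides synthetases into class I and class II, both classes held members that changed. Among cytosolic genes, 3 of 9 of class I fell (Iars, Rars and Qars), as did 1 of 10 of class II (Farsa), leaving out Eprs, which joins a domain of each class. Among mitochondrial genes, 3 of 9 of class I rose (Vars2, Iars2 and Ears2), as did 3 of 7 of class II (Aars2, Nars2 and Tars2). Of the 8 genes whose proteins sit in the multi-synthetase complex, Eprs rose, 3 fell (Iars, Rars and Qars) and Dars, Kars, Lars and Mars were not called. The summed level of these 8 mRNAs was 198 to 202 FPKM in control and 199.5 to 200.9 FPKM in knockout libraries. Of the 12 cytosolic genes outside the complex, 1 was called (Farsa, lower), and their sum was 300 to 309 FPKM in control and 291 to 303 FPKM in knockout tissue. The shares called over all genes were 21.9% higher and 21.6% lower, and no test of a difference between these groups of genes was made.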
